A study of Mus musculus with 39 samples.

Results

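Hox genes encode homeodomain transcription factors and lie in the mouse genome in 4 clusters, Hoxa, Hoxb, Hoxc and Hoxd. The genes described here were all those whose symbol is Hox, a cluster letter and a number. The rule matched 40 rows of the count tables, of which 39 were genes present in both tables, out of 21561 genes that the tables shared. The remaining row was a duplicate identifier for Hoxd4 and is treated where Hoxd4 is described.

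Within a cluster, Hox genes are transcribed in the same direction, and their order along the chromosome matches the order of the body regions in which they are active in the embryo, from head to tail. Genes at the same place in different clusters are paralogues and share a number, so low numbers are anterior and high numbers posterior. In the male reproductive tract, posterior genes such as Hoxa10 and Hoxa11 are required for normal development of the Wolffian duct, the embryonic duct that becomes the epididymis and vas deferens, and mice lacking Hoxa10 are known to have undescended testes. The gubernaculum is the cord of mesenchyme and muscle that draws the testis towards the scrotum under the hormone INSL3, which Leydig cells secrete.

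RNA sequencing was done on gubernaculum and testis of male C57BL/6J mice at postnatal days 8, 23 and 40 (P8, P23 and P40). The genotypes compared were wild type (WT), INSL3-KI, in which the coding sequence of a cetacean, the minke whale, replaced that of mouse Insl3 at its own locus and under the mouse promoter, and INSL3-KO, in which Insl3 was disrupted. Gubernaculum was profiled at P8 in WT, INSL3-KI and INSL3-KO and at P23 in WT and INSL3-KI, and testis at P8 and P23 in all 3 genotypes and at P40 in WT and INSL3-KI. Each of the 13 groups held 3 biological replicates, giving 39 libraries. Both mutations are carried in every cell of the animal, so gubernaculum and testis of one genotype cannot be separated as the site of origin of a difference.

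Hoxa lay on chr6:52155590-52260880 on the minus strand with 11 genes, Hoxb on chr11:96194316-96368256 with 10, Hoxc on chr15:102921103-103036852 with 9 and Hoxd on chr2:74668310-74765142 with 9, the last 3 on the plus strand (GRCm38). The promoter of Hoxd13, the gene with the largest rise in the P8 gubernaculum, is shown beside that of Hoxa5, a gene that fell there. Each is the 250 bases before the RefSeq transcription start (GRCm38.p6), written 5′ to 3′ on the gene's own strand, with CpG dinucleotides, the sites of DNA methylation, in capitals.
Hoxd13, chr2:74667975-74668224, plus strand: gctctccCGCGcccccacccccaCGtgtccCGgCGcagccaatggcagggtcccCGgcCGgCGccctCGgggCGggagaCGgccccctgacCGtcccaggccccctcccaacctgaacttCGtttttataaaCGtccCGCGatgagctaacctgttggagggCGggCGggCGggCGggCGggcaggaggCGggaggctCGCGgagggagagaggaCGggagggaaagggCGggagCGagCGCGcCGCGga
Hoxa5, chr6:52204588-52204837, minus strand: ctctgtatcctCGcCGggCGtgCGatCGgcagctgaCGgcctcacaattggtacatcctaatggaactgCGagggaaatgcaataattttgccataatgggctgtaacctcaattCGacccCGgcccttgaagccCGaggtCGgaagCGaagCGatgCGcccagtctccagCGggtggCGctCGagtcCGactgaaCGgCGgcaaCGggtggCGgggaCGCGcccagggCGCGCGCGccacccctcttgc
The Hoxd13 window held 31 CpG and the Hoxa5 window 28. The median over the 24 windows of 22 Hox genes was 12.5, against 6.0 over 32851 promoters. CpG-rich start regions were therefore present in a gene that rose and in one that fell.

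Reads were counted per gene, so the likeness of paralogues matters for how well they can be told apart. The homeobox, the 180 bases that encode the DNA-binding homeodomain, was found in all 39 genes. It is shown for Hoxa10, Hoxc10 and Hoxd10, paralogues of which Hoxc10 fell while Hoxa10 and Hoxd10 rose in INSL3-KI gubernaculum at P8. Each lies in exon 2 of 2 (GENCODE annotation, GRCm38). In Hoxc10, capitals mark the bases that differ from both of the others, and in Hoxa10 and Hoxd10 those that differ from Hoxc10.
Hoxc10, chr15:102970848-102971027, plus strand: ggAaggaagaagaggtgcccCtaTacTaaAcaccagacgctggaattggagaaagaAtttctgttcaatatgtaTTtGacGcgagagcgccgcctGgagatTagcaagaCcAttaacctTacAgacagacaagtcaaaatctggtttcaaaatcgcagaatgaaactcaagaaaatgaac
Hoxa10, chr6:52232554-52232733, minus strand: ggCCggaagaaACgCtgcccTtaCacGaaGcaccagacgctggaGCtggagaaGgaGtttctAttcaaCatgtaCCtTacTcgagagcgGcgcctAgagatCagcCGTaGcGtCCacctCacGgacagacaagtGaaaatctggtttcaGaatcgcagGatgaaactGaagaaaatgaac
Hoxd10, chr2:74694141-74694320, plus strand: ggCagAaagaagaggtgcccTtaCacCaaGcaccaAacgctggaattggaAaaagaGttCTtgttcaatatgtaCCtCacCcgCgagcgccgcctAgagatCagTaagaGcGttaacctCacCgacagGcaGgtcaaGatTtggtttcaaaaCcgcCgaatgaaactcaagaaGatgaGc
Identity was 80.6% between Hoxa10 and Hoxc10, 78.9% between Hoxa10 and Hoxd10 and 82.8% between Hoxc10 and Hoxd10. The longest identical run was 14, 14 and 16 bases. Even in their most conserved part these genes differed within every stretch longer than 16 bases.

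Read totals ran from 29861447 to 45260372 per library. Insl3, the targeted gene, had 20844 to 25238 counts in WT testis at P23, 52 to 84 in INSL3-KI and 0 to 5 in INSL3-KO. At P8 it had 2722 to 3524 counts in WT testis, 15 to 33 in INSL3-KI and 613 to 906 in the libraries labelled INSL3-KO, which therefore did not lack its transcript, and they are called by their label below. WT and INSL3-KI libraries were deposited in 1 table, except P23 WT testis, which shared a second table with all INSL3-KO libraries. There, 13 Hox genes overlapped an entry that the first table did not list, and Hoxa6 had at most 4 counts in every library. Comparisons across the tables therefore carry the table as well as the genotype, and the 2 cannot be told apart.

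In the WT gubernaculum at P8 the most abundant Hox transcripts per length were Hoxc10 at 19.6 ± 0.22 FPKM, Hoxd8 at 18.6 ± 3.28 and Hoxa10 at 16.8 ± 0.79 (SD, n = 3 for every mean here and below). Hoxa7 followed at 11.7 ± 1.05 and Hoxa11 at 10.8 ± 1.60 FPKM. Hoxc10 and Hoxd8 did not differ beyond their spread, nor did Hoxa7 and Hoxa11. Summed over the 39 genes the level was 165 ± 5.63 FPKM, of which the 16 posterior genes (numbers 9 to 13) made 73.9 ± 3.47, the 11 central genes (5 to 8) 67.2 ± 5.34 and the 12 anterior genes (1 to 4) 23.9 ± 0.978. Hoxd12 and Hoxd13, at the posterior end of Hoxd, had 0 counts in all 3 libraries.

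**Figure D1:**
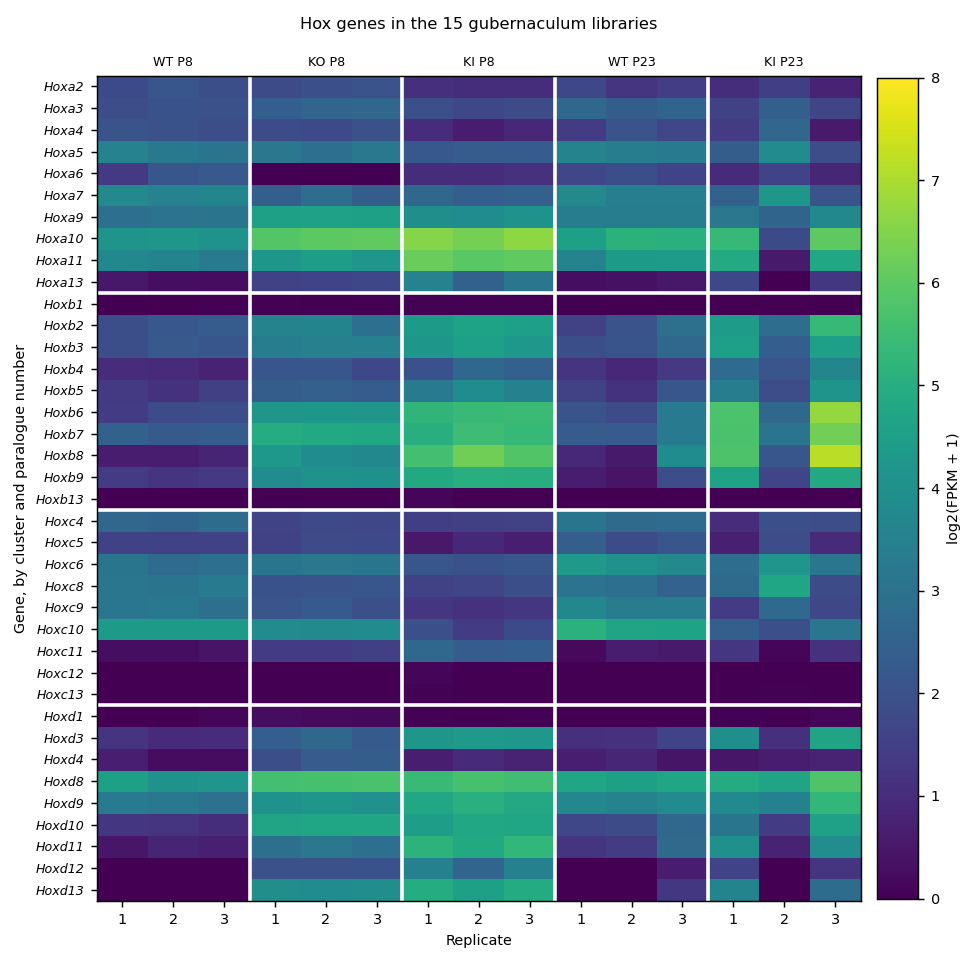
Level of Hox genes (rows, by cluster and number) in each of the 15 gubernaculum libraries (columns, by group), as log2(FPKM + 1) on the colour scale. Posterior Hoxd and most Hoxb rows are brighter in the P8 INSL3-KI and INSL3-KO libraries than in WT, Hoxc4 to Hoxc10 are darker in INSL3-KI, and at P23 the libraries of 1 group differ from each other.

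Replacement of Insl3 by the cetacean sequence went with a changed set of Hox transcripts in the P8 gubernaculum. Of 34 genes with enough counts to be tested, 18 rose and 11 fell in INSL3-KI against WT, where called means an adjusted p under 0.01 and at least a 2-fold difference in edgeR's quasi-likelihood test. Over all 15500 genes tested, 14.4% were higher and 9.7% lower. The median log2 fold change was 1.71 for the Hox genes and 0.02 for all genes. The direction followed the cluster. All 8 tested Hoxb genes and 6 of 8 Hoxd genes rose and none fell, 6 of 7 Hoxc genes fell and only Hoxc11 rose, and in Hoxa 3 genes rose (Hoxa10, Hoxa11 and Hoxa13) and 5 fell (Hoxa2, Hoxa4, Hoxa5, Hoxa6 and Hoxa7). Of the posterior genes 10 of 13 rose and 2 fell. When libraries were scaled on fibroblast genes in place of all genes, which put the median of all genes at 1.23 on the log2 scale and called 9698 of the 15500 genes, 21 rose and 2 fell (Hoxc9 and Hoxc10). Hoxb1, Hoxb13, Hoxc12, Hoxc13 and Hoxd1 were too low to test.

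The summed Hox level was 623 ± 21.1 FPKM in INSL3-KI at P8, against 165 ± 5.63 in WT. The posterior genes summed to 340 ± 24.8 FPKM, the central ones to 212 ± 30.4 and the anterior ones to 71.5 ± 5.14. Hoxa10 led with 90.5 ± 10.4 FPKM, followed by Hoxa11 with 65.3 ± 5.07, Hoxb8 with 59.9 ± 14.8 and Hoxd8 with 45.3 ± 4.28. Hoxc10 was not among the 10 most abundant.

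The posterior Hoxd genes, which pattern the distal limb and the urogenital tract, made the largest rise. Hoxd13 had 0, 0 and 0 counts in the WT libraries and 2616, 1781 and 2253 in INSL3-KI. It was thus undetected in WT and abundant in every INSL3-KI library, at least 665-fold higher against a floor of 3 counts per library. Hoxd12 had 0 counts in all WT libraries and 934, 410 and 804 in INSL3-KI, at least 214-fold higher. Hoxd11 had 17, 34 and 27 counts in WT and 1361, 1004 and 1308 in INSL3-KI (log2 fold change 5.42 ± 0.25 (SE), adjusted p = 1.46e-06 by edgeR). Hoxd10 (log2 fold change 3.90), Hoxd3 (3.29) and Hoxd9 (1.52) also rose. Each of these groups of 3 libraries lay wholly above the WT libraries. The share of such separation over all genes was not counted, here and for the genes below. At an unadjusted p under 0.05 (edgeR) there were 32 of the 34 Hox genes in this comparison, against 60.2% of all 15500 genes. Hoxd8 was not called, at a log2 fold change of 0.96. The Hoxd4 gene row alone was not called at 0.86, but most Hoxd4 reads lay in the duplicate row. With that row added, Hoxd4 had 157, 178 and 167 counts in WT and 1008, 1291 and 1037 in INSL3-KI. That sum was not tested.

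Hoxb, whose anterior and central genes are best known from the hindbrain and spinal cord, rose along its tested length. Hoxb8 had 54, 57 and 77 counts in WT and 3502, 4809 and 3895 in INSL3-KI (log2 fold change 5.89 ± 0.23, SE, adjusted p = 6.99e-07 by edgeR). Hoxb9 had 153, 129 and 147 counts in WT and 2538, 2633 and 2427 in INSL3-KI (4.01 ± 0.13). For both genes the lowest INSL3-KI library exceeded the highest WT library. The log2 fold changes of the other genes were 3.57 for Hoxb6, 2.89 for Hoxb7, 2.50 for Hoxb5, 2.32 for Hoxb2, 2.18 for Hoxb3 and 1.91 for Hoxb4.

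In Hoxa the genes split by position. Hoxa10 had 1334, 1426 and 1275 counts in WT and 7033, 5507 and 6511 in INSL3-KI (log2 fold change 2.10 ± 0.10, SE). Hoxa11 had 1024, 981 and 769 counts in WT and 5671, 4439 and 4550 in INSL3-KI (2.26 ± 0.13). Hoxa13, a gene of the limb tip and the end of the gut and urogenital sinus, had 38, 20 and 17 counts in WT and 906, 352 and 568 in INSL3-KI (4.44 ± 0.42). The groups did not overlap for any of the 3 posterior genes. On the anterior side Hoxa4 had 188, 184 and 161 counts in WT and 57, 30 and 44 in INSL3-KI, and fell by 2.17 on the log2 scale. Hoxa5, known for its part in lung and rib development, had 729, 608 and 526 counts in WT and 236, 240 and 232 in INSL3-KI, and fell by 1.53. These groups did not overlap either, and all INSL3-KI libraries were the low ones. Hoxa2 fell by 1.73 and Hoxa7 by 1.54. Hoxa6 fell by 1.71 from 51, 117 and 122 counts to 33, 31 and 33, and its call was lost in 11 of 14 other settings, among them without WT replicate 2 or 3 or any INSL3-KI library. The calls of Hoxa2, Hoxa4, Hoxa5, Hoxa6 and Hoxa7 were lost with fibroblast scaling. Hoxa9, between both sets, was not called at 0.80, nor was Hoxa3 at -0.50.

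Hoxc fell, except at its posterior end. Hoxc10, a gene of the hindlimb and lumbar level, had 1384, 1425 and 1398 counts in WT and 194, 102 and 144 in INSL3-KI (log2 fold change -3.40 ± 0.19, SE, adjusted p = 4.11e-06 by edgeR). Hoxc9 had 673, 760 and 591 counts in WT and 118, 88 and 105 in INSL3-KI (-2.84 ± 0.17). In each, the highest INSL3-KI library was below the lowest WT library. Hoxc8 (-2.13), Hoxc5 (-1.98), Hoxc4 (-1.87) and Hoxc6 (-1.36) fell less, and fibroblast scaling took the calls of these 4. The neighbour Hoxc11 went the other way, from 17, 19 and 26 counts in WT to 386, 260 and 262 in INSL3-KI (3.71 ± 0.28). Hoxa10, Hoxc10 and Hoxd10, the paralogues whose homeoboxes are shown above, thus moved by 2.10, -3.40 and 3.90.

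**Figure D2:**
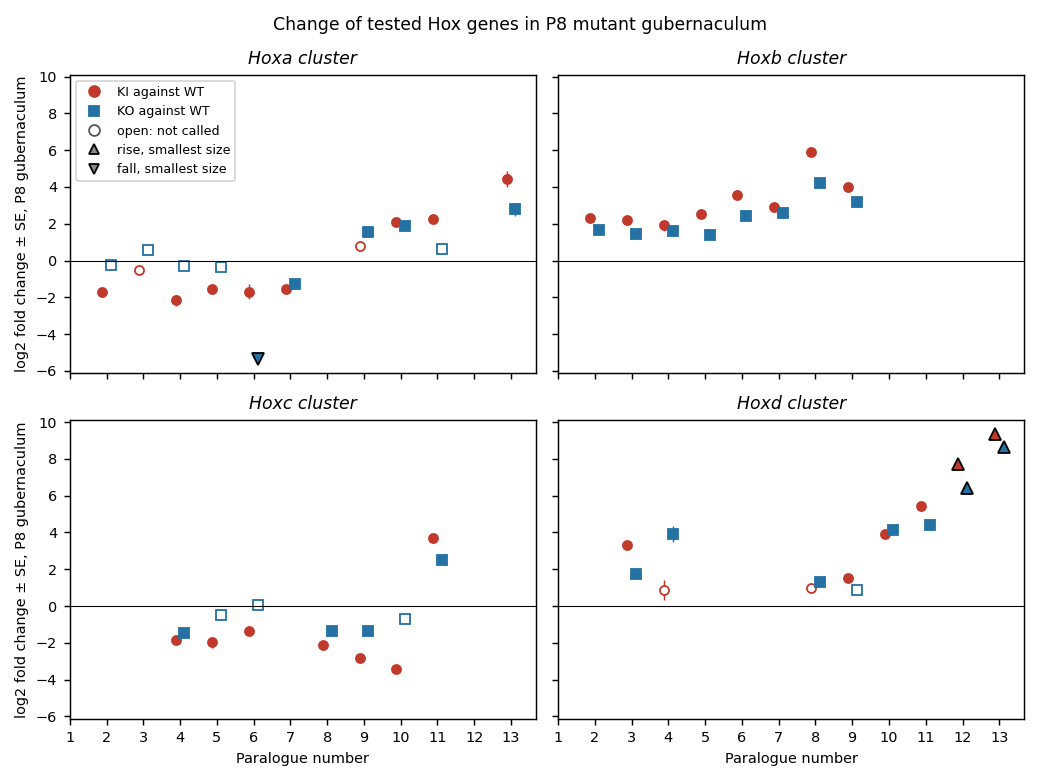
Log2 fold change against WT (vertical axis, bars are SE) of tested Hox genes by paralogue number (horizontal axis) in the 4 clusters, for P8 INSL3-KI (red circles) and INSL3-KO (blue squares) gubernaculum with 3 libraries a group. Open symbols were not called, and triangles are the smallest rise or fall against a group without detected counts. Hoxd rises with the number from Hoxd8 to at least 665-fold at Hoxd13 in INSL3-KI, Hoxb is above 0 throughout, and Hoxc is below 0 up to Hoxc10 in INSL3-KI.

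Tissue markers moved with the Hox genes in the same libraries. In a bulk sample fewer cells of a type and less RNA per cell cannot be told apart. Of 23 genes of epididymal epithelium, 11 were tested and 9 rose in INSL3-KI at P8. Their summed level was 1.64 to 4.03 CPM (counts scaled to library size) in WT, where 13 of the 23 were at 0 in every library, and 1554 to 3168 in INSL3-KI, where Bsph1, Cst11, Cst12, Defb12 and Lcn9 were at 0. Of 15 genes of Wolffian duct and tubular epithelium, 14 of 14 tested rose (47.5 to 137 CPM in WT and 1936 to 2318 in INSL3-KI). Smooth muscle genes went from 3798 to 4257 CPM in WT to 16435 to 21023 in INSL3-KI with 6 of 9 higher, and adipocyte genes from 451 to 493 CPM to 1697 to 2177 with 10 of 12 higher. Of 26 skeletal muscle genes, 24 fell, from 49648 to 55699 CPM in WT to 1423 to 2223 in INSL3-KI, where Myf6 was at 0, and of 18 fibroblast genes 9 fell and 1 rose, from 58423 to 63604 CPM to 21044 to 31044. Skeletal muscle, present in the WT gubernaculum, was thus low in the INSL3-KI libraries labelled gubernaculum, and duct epithelium was present. The part of these differences in the Hox values was not tested.

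The INSL3-KO gubernaculum at P8, which was compared with the same WT libraries, also differed in Hox transcripts. Of 34 genes tested, 19 rose and 5 fell, against 15.5% higher and 15.2% lower over 15609 genes. All 8 tested Hoxb genes and 7 of 8 Hoxd genes rose, 3 of 11 Hoxa genes rose (Hoxa9, Hoxa10 and Hoxa13) and 2 fell (Hoxa6 and Hoxa7), and in Hoxc 3 of 7 fell (Hoxc4, Hoxc8 and Hoxc9) and Hoxc11 rose. Fibroblast scaling, which put the median of all genes at 0.85 on the log2 scale and called 7360 of the 15609 genes, gave 22 higher and 1 lower (Hoxa6). With all 15 gubernaculum libraries in 1 fit the counts were 11 higher and 2 lower, and 3453 of 16342 genes were called. The summed Hox level was 388 ± 8.21 FPKM, with 204 ± 6.77 from posterior genes. The transcript length implied by counts and FPKM differed by over 10% between the tables for Hoxb2, Hoxb8, Hoxc5, Hoxd4 and Hoxd11. The sums for WT and INSL3-KI also leave out the duplicate Hoxd4 row. As CPM the 39 genes summed to 883 to 925 in INSL3-KO, 1119 to 1204 in INSL3-KI and 393 to 421 in WT.

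Hoxd13 had 1439, 1594 and 1628 counts in INSL3-KO and 0 in every WT library, at least 397-fold higher. Hoxd12 had 300, 354 and 354 counts, at least 85.8-fold higher than in WT. Hoxd11 had 629, 827 and 726 counts (log2 fold change 4.40 ± 0.25, SE) and Hoxd10 had 1783, 2108 and 2146 against 93, 97 and 73 in WT (4.12 ± 0.12). In all 4 genes every INSL3-KO library lay above every WT library, and the share of such separation over all genes was again not counted. At an unadjusted p under 0.05 (edgeR) there were 30 of the 34 Hox genes, against 71.5% of all 15609 genes. Hoxd3 (1.74) and Hoxd8 (1.33) rose, and Hoxd9 was not called at 0.89. Hoxd4 rose by 3.91, from 32, 12 and 12 counts in WT to 249, 411 and 469. The first table splits Hoxd4 between its gene row and the duplicate row (125, 166 and 155 further counts in WT, 976, 1246 and 1002 in INSL3-KI), so the value for Hoxd4 alone rests on the tables. With overlapping entries added to each gene, Hoxd4 had 157, 178 and 167 counts in WT, 1008, 1291 and 1037 in INSL3-KI and 526, 803 and 838 in INSL3-KO.

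The Hoxb genes rose by log2 fold changes of 4.19 for Hoxb8, 3.17 for Hoxb9, 2.60 for Hoxb7, 2.41 for Hoxb6, 1.64 for Hoxb2, 1.59 for Hoxb4, 1.42 for Hoxb3 and 1.36 for Hoxb5. Hoxb8 had 1453, 1682 and 1398 counts in INSL3-KO, all above the 54 to 77 of WT and below the 3502 to 4809 of INSL3-KI. In Hoxa, Hoxa10 had 5445, 6729 and 7128 counts (1.86 ± 0.08, SE), Hoxa13 had 195, 228 and 258 (2.78 ± 0.35) and Hoxa9 had 2781, 3332 and 3217 against 747, 816 and 812 in WT (1.58 ± 0.07). For these 3 genes too the INSL3-KO and WT libraries did not overlap. Hoxa11, with 1638, 2214 and 1790 counts, was not called at 0.62, but 35.0% of its exonic bases overlap the antisense transcript Hoxa11os, which only the second table lists. With those counts added, Hoxa11 had 2741, 3664 and 3004 in INSL3-KO, above the 769 to 1024 of WT. Hoxa4 was not called at -0.31.

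The falls in INSL3-KO were smaller and fewer. Hoxc4 fell by 1.47 on the log2 scale, Hoxc9 by 1.35, Hoxc8 by 1.33 and Hoxa7 by 1.28. Hoxc9 had 315, 415 and 317 counts and Hoxc8 had 250, 304 and 325, below all WT libraries. Hoxc10 had 1032, 1169 and 1183 counts, all under the 1384 to 1425 of WT, and was not called at -0.71. The call of Hoxa7 was lost with the overlapping entries added. Hoxa6 had 1, 0 and 0 counts in INSL3-KO, at least 41.7-fold under WT, but it was near 0 in every library of that table, so its value here cannot be told apart from the table. Hoxc11 rose by 2.50.

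The tissue markers of the INSL3-KO gubernaculum lay between WT and INSL3-KI for skeletal muscle (11397 to 12352 CPM, 22 of 26 genes lower than WT), smooth muscle (7913 to 8434), Wolffian duct and tubular epithelium (1031 to 1075, 14 of 15 higher) and fibroblast genes (33781 to 35602). Epididymal genes summed to 1912 to 2009 CPM, with Adam28, Bsph1, Cst11 and Lcn9 at 0 and 9 of 12 tested higher than in WT. Adipocyte genes summed to 3868 to 4160 CPM and hepatocyte genes to 354 to 10344, the latter against 37.7 to 121 in WT. Their part in the Hox values was not tested.

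Tested directly, INSL3-KI and INSL3-KO differed at P8 in 18 of 34 Hox genes, 9 higher and 9 lower in INSL3-KI, against 11.9% and 10.5% of all 15642 genes. Fibroblast scaling gave 15 higher and 6 lower, with 4436 of the 15642 genes called. All groups in 1 fit gave 1 higher and 5 lower, with 2316 of 16342 genes called. Among the higher genes were Hoxb8 (log2 fold change 1.66 ± 0.16, SE), Hoxa13 (1.63 ± 0.30), Hoxa11 (1.60 ± 0.10) and Hoxd3 (1.52 ± 0.15). Hoxa6, the highest by fold, was at least 12.5-fold higher and rests on the table split. The calls of Hoxa11 and Hoxd3 were lost with overlapping entries added, and that of Hoxa13 without INSL3-KI replicate 3 or without INSL3-KO replicate 1 or 2. Hoxd13 was 0.73 higher on the log2 scale and Hoxa10 0.21 higher, and neither was called.

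The 9 lower genes were Hoxa2, Hoxa3, Hoxa4, Hoxa5, Hoxc5, Hoxc6, Hoxc9, Hoxc10 and Hoxd4. Hoxc10 stood at 102 to 194 counts in INSL3-KI and 1032 to 1183 in INSL3-KO (log2 fold change -2.73 ± 0.20, SE, adjusted p = 4.18e-05 by edgeR). Hoxa4 followed at -1.89 ± 0.26, Hoxc9 at -1.53 and Hoxa2 at -1.52. Hoxd4 was at -3.08, and turned to 0.86 with overlapping entries and the duplicate row added. The Hoxc10 counts of the 3 genotypes at P8 fell into 3 separate ranges.

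At P23 no Hox gene was called between INSL3-KI and WT gubernaculum by edgeR among 34 tested, against 0.212% higher and 2.35% lower over 15082 genes (2.57% in either direction). At an unadjusted p under 0.05 there were 12, against 5063 (33.6%) of all genes. DESeq2 called 4 higher and 3 lower, limma on log2(FPKM + 1) 1 and limma on log2(FPKM + 0.1) 0, and over all genes these called 2221, 644 and 649. Fibroblast scaling, which put the median of all genes at 1.87 and called 2558 of them, gave 14 higher and 0 lower Hox genes. Without INSL3-KI replicate 2 edgeR called 4, without INSL3-KI replicate 3 it called 1, and without INSL3-KI replicate 2 and WT replicate 3 together, a choice made after seeing the data, it called 6, all higher. Over all genes those fits called 638, 364 and 580.

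The summed Hox level at P23 was 458 ± 281 FPKM in INSL3-KI and 233 ± 24.4 in WT, and the libraries of a group differed. Hoxd13 had 1037, 0 and 634 counts in INSL3-KI and 0, 0 and 134 in WT (log2 fold change 3.37 ± 2.58, SE, adjusted p = 0.39). Hoxb8 had 3837, 329 and 12786 counts in INSL3-KI and 84, 48 and 1139 in WT (3.32 ± 1.60). INSL3-KI replicate 2 was the low library of its group and WT replicate 3 the high one of its group, so the groups overlapped. Hoxa10 had 3079, 227 and 5936 counts in INSL3-KI and 1819, 2817 and 2768 in WT (-0.13), Hoxa11 had 2451, 41 and 2526 against 894, 1679 and 1767 (-0.18) and Hoxa13 had 202, 0 and 146 against 21, 27 and 36 (1.67). INSL3-KI replicate 2 was again the lowest library in all 3. Hoxa4 ran the other way, with 97, 305 and 32 counts in INSL3-KI and 96, 191 and 136 in WT (-0.15), and INSL3-KI replicate 2 was the highest.

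Hoxc10, Hoxc4 and Hoxb4 had no overlap between the groups, though INSL3-KI replicate 2 was again the lowest of its group for Hoxc10. Hoxc10 had 311, 197 and 619 counts in INSL3-KI and 2252, 1752 and 1727 in WT, without overlap (log2 fold change -2.80 ± 0.39, SE, adjusted p = 0.012 by edgeR, not called). Hoxc4 stood at -1.86 ± 0.46 and Hoxb4 at 2.14 ± 0.49, also without overlap between the groups and not called. With 3 libraries a group, such separation can also arise without a difference, and its share over all genes was not counted.

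The epididymal genes summed to 3691, 15.9 and 9366 CPM in the 3 INSL3-KI libraries at P23 and to 7.90, 4.66 and 1347 in WT. Crisp1, one of them, had 81321, 23 and 312449 counts in INSL3-KI and 0, 4 and 33293 in WT. The libraries with many epididymal reads were thus those with Hoxd13 counts, INSL3-KI replicates 1 and 3 and WT replicate 3. INSL3-KI replicate 2 held the most adipocyte reads (32131 CPM, against 464 to 879 in WT) and the fewest of skeletal muscle (136 CPM, against 98223 to 180161 in WT). Skeletal muscle genes were low in all 3 INSL3-KI libraries, at 136 to 1821 CPM. The part of these differences in the Hox values was not tested.

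**Figure D3:**
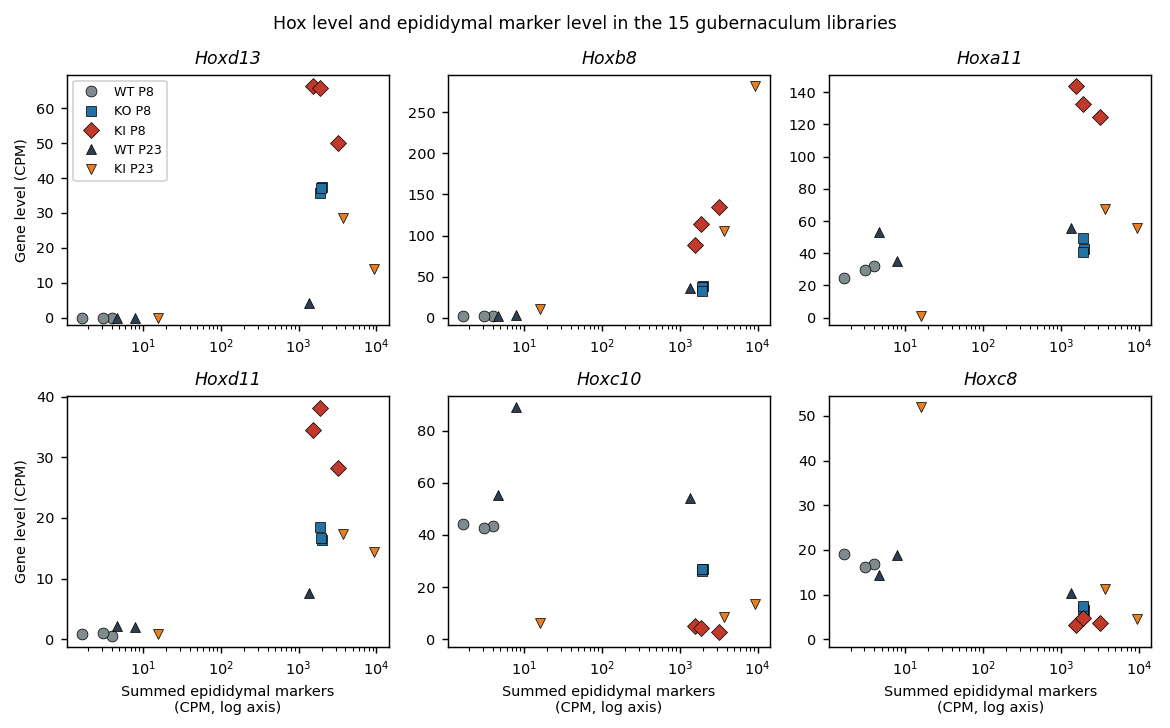
Level of 6 Hox genes (CPM, vertical axes) against the summed CPM of 23 epididymal marker genes (horizontal axes, log scale), with 1 point for each of the 15 gubernaculum libraries, marked by group. Hoxd13 is at 0 in the libraries with the fewest epididymal reads, INSL3-KI P23 replicate 2 among them, and above 0 in WT P23 replicate 3, while Hoxc10 is low in all 6 INSL3-KI libraries.

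The change of the INSL3-KI effect from P8 to P23 was tested as an interaction term over the 12 WT and INSL3-KI libraries. Among 34 Hox genes 0 were called by edgeR, against 0.0874% of 16016 genes called higher, 0.194% lower and 0.281% in either direction. At an unadjusted p under 0.05 there were 10, against 4094 (25.6%) of all genes. DESeq2 called 3, all lower at P23, and 1119 of all genes. Hoxa9 had a difference of log2 fold changes of -1.35 ± 0.31 (SE, adjusted p = 0.033 by edgeR), Hoxa10 of -2.26 ± 0.97, Hoxa11 of -2.47 ± 1.23 and Hoxb8 of -2.60 ± 1.64. Without INSL3-KI P23 replicate 2 or 3 edgeR called 2, and 352 and 463 of all genes.

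Genes known to work with or upstream of Hox genes were counted from fixed lists. Of 9 cofactors of the Pbx, Meis and Pknox families, which bind DNA together with Hox proteins, Meis2 rose at P8 in INSL3-KI (log2 fold change 2.34 ± 0.11, SE) and in INSL3-KO (1.76 ± 0.07), where Meis3 fell by 1.29, and the others were not called. The median of the cofactors was 0.10 in INSL3-KI, against 0.02 over all genes. Of 27 genes of the Polycomb and trithorax groups, which keep Hox genes silent or active, 3 rose in INSL3-KI, against 14.4% of all genes, among them Cbx7 (2.42) and Ezh1 (1.02), and in INSL3-KO Bmi1 rose (1.14) and Kdm6b fell by 1.66. This list had a median of 0.32 in the former genotype and -0.13 in the latter.

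Retinoic acid is a known inducer of anterior Hox genes, and Cdx proteins of posterior ones. Of 12 tested genes of these routes 2 rose and 4 fell in INSL3-KI at P8, against 14.4% and 9.7% of all genes, and 2 rose and 2 fell in INSL3-KO, against 15.5% and 15.2%. Aldh1a1, which makes retinoic acid, rose in both (log2 fold change 3.31 ± 0.26, SE, and 4.20 ± 0.18), as did Cyp26b1, which degrades it (1.02 and 1.16). In INSL3-KI the receptor genes Rxrg (-3.05) and Rarb (-2.06) and the enzyme gene Aldh1a2 (-2.16) fell, and Cyp26a1 was at least 19.7-fold lower. In INSL3-KO Rxrg (-1.84) and Rara (-1.01) fell.

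Of 22 tested other transcription factors of position and organ identity, 8 rose and 10 fell in INSL3-KI at P8, against the same 14.4% and 9.7% of all genes. Pax8 and Pax2, which specify the nephric and Wolffian ducts, went from 0.12 and 0.11 CPM in WT to 83.3 and 66.3 in INSL3-KI (log2 fold changes 9.43 and 9.24). Tbx15 and Alx4, known from limb and body wall, went from 140 and 199 CPM in WT to 0.27 and 1.55 (log2 fold changes -8.98 and -6.98). In INSL3-KO 7 of 26 rose, led by Pax8 (7.56) and Pax2 (6.56), and 9 fell, led by Alx4 (-3.44), Pitx1 (-3.24) and Tbx15 (-2.58), against 15.5% and 15.2% of all genes. In INSL3-KI at P23, 3 of 23 tested fell, among them Tbx15 (-10.21) and Isl1 (-6.25), and 0 rose. Of the 9 cofactors Pknox2 (-2.35) fell and 0 rose. Over all genes 2.35% were lower and 0.212% higher there. Evx1, next to Hoxa13, was undetected in WT and at least 6.77-fold higher in INSL3-KI at P8. Of the 19 cluster RNAs and Evx genes listed, 2 were tested there and the other was not called.

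In WT animals at P8, gubernaculum and testis differed in 7 of 32 tested Hox genes, 4 higher and 3 lower in gubernaculum, against 14.1% and 14.3% of 15624 genes. Hoxc10 was 3.35 ± 0.29 (SE) higher on the log2 scale in gubernaculum, Hoxa2 2.61 and Hoxc9 2.13 higher, and Hoxa13, undetected in testis, at least 11.7-fold higher. Hoxd10 (-2.51), Hoxb9 (-2.15) and Hoxd9 (-1.88) were lower in gubernaculum. Hoxa10, Hoxa11 and Hoxa4, at 2.81, 3.54 and 1.87, were not called. The number of calls was 12 without WT testis replicate 1 and 19 without replicate 3, and the cause was not tested. Those fits called 3856 and 4622 of all genes, against 4438 with every library. Hoxa10 had 23, 329 and 477 counts in these testis libraries. From P8 to P23 only Hoxc6 was called in WT gubernaculum (1.33 ± 0.23, against 6.17% of all genes higher and 4.34% lower), and the count ran from 0 to 2 when single libraries were left out. It was 2 without WT P23 replicate 1, and 0 without WT P23 replicate 2 or without any 1 of the P8 replicates. In that order the fits called 1273, 1036, 393, 313 and 289 of all genes, against 1571 with every library. Hoxa10 (0.98), Hoxa11 (0.74), Hoxa13 (0.26) and Hoxa4 (-0.23) were not called, and Hoxd13 was too low to test in both.

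In WT testis at P8 Hoxd9 led at 40.4 ± 6.48 FPKM, before Hoxd8 at 18.2 ± 5.35, then Hoxd10 and then Hoxb9 at 9.04 ± 1.26. At P23 and P40 Hoxa4 led at 43.7 ± 2.40 and 34.6 ± 2.87 FPKM, before Hoxd8, which was at 21.1 ± 0.090 at P23. Hoxa4 is known to be transcribed in male germ cells from meiosis on. It had 34, 35 and 137 counts in WT testis at P8, 3092, 2779 and 2764 at P23 and 1845, 2152 and 2615 at P40, so that every older library was above every P8 library (log2 fold change P40 against P8 5.66 ± 0.51, SE, adjusted p = 2.08e-05 by edgeR). Of 27 Hox genes tested between P40 and P8, Hoxa4 alone rose and 16 fell, against 31.9% higher and 27.8% lower, 59.7% together, over 16892 genes. Scaling on Sertoli cell genes, which put the median of all genes at 1.29 and called 10402 of the 16892 genes, gave 3 higher and 10 lower. Hoxd9 fell by 3.92, Hoxc10 by 4.03, Hoxd11 by 4.76, Hoxb8 by 5.76 and Hoxa10 by 6.90 on the log2 scale, and Hoxa2 was at least 9.42-fold lower. Without WT P40 replicate 1, 2 or 3 there were 6, 9 and 11 calls. Those fits called 9473, 9493 and 9847 of all genes, against 10092 with every library. Hoxa11, Hoxa13 and Hoxd13 were too low to test.

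**Figure D4:**
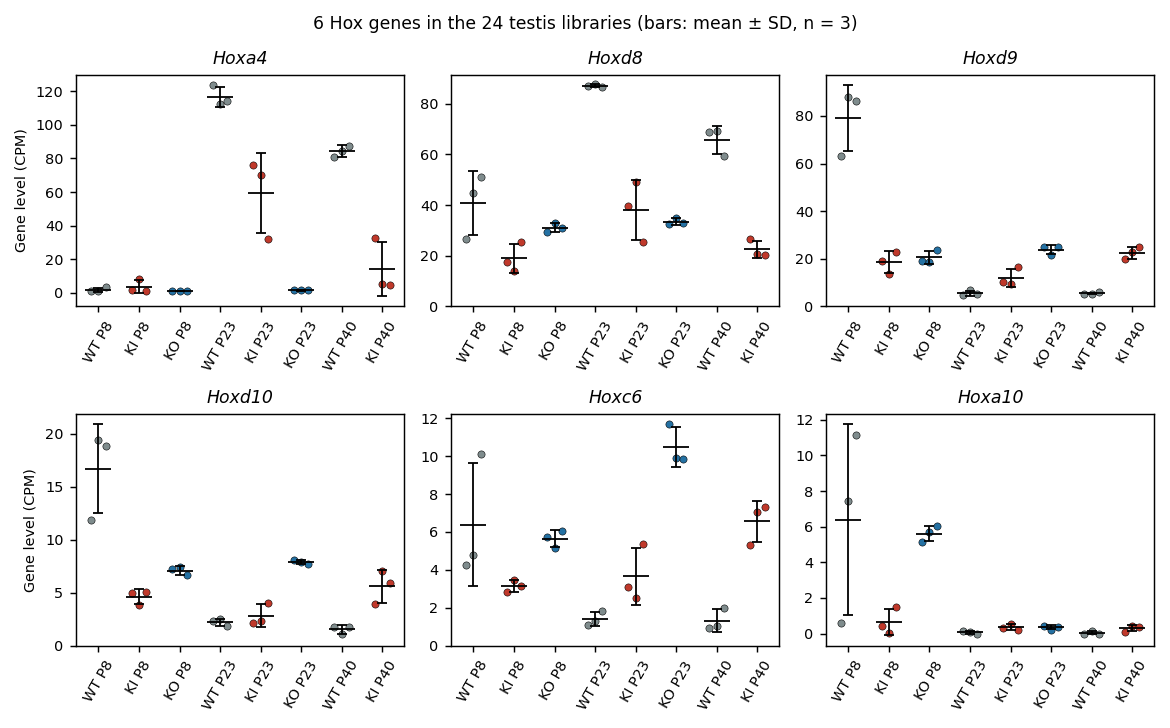
Level (CPM, mean ± SD of 3 libraries, with points for the libraries) of Hoxa4, Hoxd8, Hoxd9, Hoxd10, Hoxc6 and Hoxa10 in the 8 testis groups by age and genotype. Hoxa4 is high in WT at P23 and P40 and near 0 in INSL3-KO at P23, and Hoxd9 is highest in WT at P8.

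At P23 Hoxa4 was nearly gone from INSL3-KO testis, with 50, 80 and 60 counts against 3092, 2779 and 2764 in WT (log2 fold change -6.18 ± 0.11, SE, adjusted p = 8.38e-12 by edgeR). The 2 groups were far apart. Of 24 Hox genes tested 10 rose and 4 fell, against 31.1% higher and 33.4% lower, 64.4% together, over 16732 genes. Besides Hoxa4, Hoxa3 (-3.73), Hoxb3 (-2.04) and Hoxd8 (-1.33) fell. Hoxc6 (2.95), Hoxd9 (2.18), Hoxb4 (2.17) and Hoxd10 (1.89) were among those that rose. The direction of the rise depended on the scaling. With libraries scaled on Sertoli cell genes, 0 rose and 11 fell, and Hoxd9, Hoxb4 and Hoxd10 stood at -0.015, -0.016 and -0.31. That scaling put the median of all genes at -2.14 and called 11778 of the 16732 genes. With library size alone 13 rose and 2 fell, and 11725 genes were called. Germ cell genes summed to 21555 to 23397 CPM in WT and 964 to 1021 in INSL3-KO, and Sertoli cell genes to 3415 to 3537 and 15257 to 15517. Their part in these values was not tested. Hoxa10, Hoxa11, Hoxa13 and Hoxd13 were too low to test.

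INSL3-KI testis at P23 had 2793, 2359 and 1169 Hoxa4 counts, the highest of which lay within the WT range of raw counts. Scaled to library size, the 11 Hoxa genes together summed to 41.8 to 90.1 CPM in INSL3-KI and 125 to 137 in WT. Hoxa4 was not called (log2 fold change -0.97 ± 0.31, SE, adjusted p = 0.0355 by edgeR). Of 22 Hox genes tested 0 rose and 3 fell, Hoxa9 (-2.29), Hoxb3 (-1.45) and Hoxd8 (-1.19), against 8.81% higher and 11.8% lower over 16603 genes. With library size alone 2 rose and 0 fell, and the calls were 0 without INSL3-KI replicate 1 or any 1 WT replicate. Those left-out fits called 778, 416, 372 and 410 of all genes, against 3428 with every library. Against INSL3-KO, Hoxa4 (5.26 ± 0.40) and Hoxa3 (3.84 ± 0.43) were higher in INSL3-KI, and Hoxd4 (-2.80), Hoxc10 (-2.20), Hoxc6 (-1.52), Hoxd10 (-1.48) and Hoxc8 (-1.46) were lower, against 25.2% higher and 13% lower over 16379 genes. The duplicate Hoxd4 row held 55, 58 and 81 further counts in INSL3-KI, so the Hoxd4 value rests on the tables. Sertoli scaling left the 2 higher and 0 lower, with Hoxc6, Hoxc8 and Hoxd10 at 0.029, 0.22 and 0.094, and leaving out INSL3-KI replicate 1 or 2 or any 1 INSL3-KO replicate also left 2. In that order these fits called 9370, 3676, 4717, 3658, 3723 and 3735 of all genes, against 6262 in the main fit. Hoxa10 (-0.02) and Hoxd13 (0.43) were not called, and Hoxa11 and Hoxa13 were too low to test. Germ cell genes summed to 3986 to 7149 CPM in INSL3-KI.

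At P40 the INSL3-KI testis had 1250, 197 and 198 Hoxa4 counts against 1845, 2152 and 2615 in WT. All INSL3-KI libraries were below WT, replicate 1 was far above the other two, and the gene was not called (log2 fold change -2.56 ± 0.78, SE, adjusted p = 0.023 by edgeR). Of 23 Hox genes tested 7 rose and 3 fell, against 25.6% higher and 22.1% lower over 16677 genes. Hoxc10 (2.77), Hoxc6 (2.35), Hoxd9 (2.12), Hoxd10 (1.92) and Hoxc4 (1.87) rose most, and Hoxb3 (-1.83), Hoxd8 (-1.50) and Hoxc9 (-1.21) fell. Sertoli scaling gave 0 higher and 7 lower, with Hoxc4 at -0.085 and Hoxd10 at -0.061. It put the median of all genes at -1.84 and called 10675 of the 16677 genes. Library size alone gave 9 higher and 1 lower, with 9041 genes called. Germ cell genes summed to 13977 to 16727 CPM in WT and 1073 to 3928 in INSL3-KI, and Sertoli cell genes to 2672 to 2994 and 8531 to 11946. Their part was not tested. Without INSL3-KI replicate 2 or 3 the calls were 5, and without WT replicate 1 or 2 they were 6. In that order the fits called 6258, 6271, 5588 and 5646 of all genes, against 7954 with every library. Hoxa10, Hoxa11, Hoxa13 and Hoxd13 were too low to test.

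In P8 testis Hoxd9 was lower than in WT in INSL3-KI and in the libraries labelled INSL3-KO. It had 2522, 3883 and 3701 counts in WT, 870, 542 and 1116 in INSL3-KI and 983, 843 and 1074 in the libraries labelled INSL3-KO. All libraries of both these groups lay below all WT libraries, at log2 fold changes of -2.02 ± 0.23 and -1.92 ± 0.15 (SE). Hoxd10 fell as well, by 1.78 in INSL3-KI and by 1.21 in the libraries labelled INSL3-KO. These 2 were the only calls of 29 genes tested in INSL3-KI (3.03% higher, 3.25% lower and 6.29% in either direction over all 15702 genes), and both were lost without INSL3-KI replicate 1 or 3, or without WT replicate 2 or 3. Over all genes those fits called 1, 14, 0 and 1, against 987 with every library, so the loss was not particular to Hox genes. In the libraries labelled INSL3-KO, Hoxc4 (-1.56) also fell and Hoxd4 rose (2.12), of 32 tested (5.44% higher and 8.37% lower over 15723 genes). Hoxd4 turned to -0.33 with overlapping entries added. The 4 calls became 11 without WT replicate 1, 1 without the replicate 1 or 3 labelled INSL3-KO and 2 without its replicate 2. In that order the fits called 2860, 1645, 1664 and 1623 of all genes, against 2171 with every library. Fibroblast genes summed to 9397 to 26953 CPM in WT, 4105 to 6307 in INSL3-KI and 6547 to 6723 in the libraries labelled INSL3-KO, and their part was not tested.

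Hoxa10 in P8 testis varied between libraries of WT and of INSL3-KI. Hoxa10 had 23, 329 and 477 counts in WT, 20, 2 and 73 in INSL3-KI and 263, 256 and 274 in the libraries labelled INSL3-KO. Crisp1, the epididymal marker, had 0, 1309 and 1785 counts in WT, 4, 11 and 3970 in INSL3-KI and 4340, 4061 and 3800 in the libraries labelled INSL3-KO. WT replicate 1 was thus low in both, and Hoxa10 was not called in either comparison with WT (-3.17 and -0.16). Hoxa13 was too low to test in P8 testis. Hoxa11 (-0.45 in the libraries labelled INSL3-KO), Hoxd13 (-0.90 and 0.72) and Hoxa4 (1.17 and -0.91) were not called either. Between INSL3-KI and the libraries labelled INSL3-KO, Hoxa11 (-5.34) and Hoxd4 (-2.20) were lower in INSL3-KI of 31 tested (2.76% higher and 1.16% lower over 15728 genes). The duplicate Hoxd4 row held 187, 75 and 243 further counts in INSL3-KI, so the Hoxd4 value rests on the tables. The calls were 0 without INSL3-KI replicate 1 or any 1 of the replicates labelled INSL3-KO, and 6 without INSL3-KI replicate 3. In that order the fits called 431, 329, 296, 319 and 713 of all genes, against 617 with every library. Hoxa10 (-3.04), Hoxd13 (-1.64) and Hoxa4 (2.06) were not called. The part of the epididymal reads in these values was not tested.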

How the data were processed

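Total RNA of gubernaculum and testis was sequenced as 150 bp paired reads. The authors deposited 2 tables of raw read counts and FPKM (fragments scaled to transcript length and library size) per gene. The submitters' processing notes name HISAT2 and GRCm38. The counter, the annotation and the strand setting are not given in the sources used here. The deposited counts were the input of every main test, and the deposited FPKM, normalised by the authors, served for levels per length and for limma. The tables were joined on the Ensembl identifier, and 0 columns of other samples were found.

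The members and gene lists were chosen with earlier results of these data known. Libraries of the compared groups were filtered (filterByExpr, minimum count 10), scaled by TMM and tested with the quasi-likelihood test of edgeR 4.0.16 (R 4.3.3), and p-values were adjusted by Benjamini-Hochberg across the whole table. A call needed an adjusted p below 0.01 and at least a 2-fold difference. Errors of log2 fold changes are SE. Folds against a group with at most 3 counts in every library were bounded with 3 counts per library, for counting error only. Alternatives used DESeq2 1.42.0 and limma 3.58.1 (pseudocounts 1 and 0.1), other filters and scalings, all groups in 1 fit, a replicate block and left-out libraries. The procedure was tested on simulated data for P8 INSL3-KI against WT gubernaculum (15500 genes). It recovered 86 of 100 genes changed 4-fold and 97 of 100 changed 8-fold, and called 4 of 15093 unchanged genes. In the measured libraries 24.1% of genes were called, and the procedure was not tested with that share changed. Named with values were up to 5 called Hox genes in each direction per comparison, every called one in the comparisons of P8 gubernaculum with WT, and a fixed set (Hoxa4, Hoxa10, Hoxa11, Hoxa13 and Hoxd13). The p-values measure the spread between these samples. INSL3-KI and INSL3-KO were compared with the same WT libraries. Values of some genes that the rule names are not reported here.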

Additional observations from a re-analysis of the deposited data

How the results depend on the processing

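In the P8 gubernaculum the total of called Hox genes moved little between settings (28 to 30 for INSL3-KI against WT, 24 to 24 for INSL3-KO against WT and 15 to 18 between them without single libraries), apart from the fit of all groups together. The totals hide the direction. Fibroblast scaling took the calls of most genes that fell in INSL3-KI and in INSL3-KO, as given above. The counts that moved beyond a set margin were as follows, and the cause was not tested. Smaller moves are not listed. All groups in 1 fit gave 13 calls for P8 INSL3-KO and 6 for INSL3-KI against INSL3-KO in gubernaculum, 10 for P23 gubernaculum, 5 for P8 testis INSL3-KI, 1 for P8 testis INSL3-KI against INSL3-KO, 5 for P23 testis INSL3-KI, 14 between WT tissues and 0 between WT gubernaculum ages. In the same order it called 3453, 2316, 2480, 2161, 769, 4572, 4677 and 1365 of all genes. DESeq2 gave 7 for P23 gubernaculum, 5 for P8 testis INSL3-KI, 8 for P23 testis INSL3-KI, 17 between WT tissues, 3 between WT gubernaculum ages and 3 for the interaction. Its calls among all genes were 2221, 2140, 5134, 5019, 2575 and 1119. Limma on log2(FPKM + 1) gave 1 for P23 gubernaculum, 1 for P8 testis INSL3-KO, 1 for P8 testis INSL3-KI against INSL3-KO, 1 for P23 testis INSL3-KI, 7 for P23 testis INSL3-KO, 3 for P40 testis and 11 between WT tissues, and limma on log2(FPKM + 0.1) gave 11 for P23 testis INSL3-KI against INSL3-KO. Among all genes the former called 644, 1505, 460, 3735, 9180, 7840 and 3990, and the latter 6579. Fibroblast scaling gave 14 for P23 gubernaculum and 4 between WT gubernaculum ages, and Sertoli scaling 1 for P23 testis INSL3-KI and 2 for INSL3-KI against INSL3-KO. These scalings called 2558, 1379, 282 and 9370 of all genes. Without a filter P8 testis INSL3-KI against INSL3-KO had 1 call. Overlapping entries added gave 1 there and 6 for P23 testis INSL3-KI. In that order these 3 fits called 579, 614 and 3431 of all genes. Without the 2 libraries that stood apart, P23 gubernaculum had 6 and the interaction 3, with 580 and 423 of all genes called. A fit without the 3 P8 testis libraries with Crisp1 left only WT replicate 1 in its group, so its calls cannot decide anything. Both choices were made after seeing the data.

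The labels do not say whether same-numbered replicates were paired. In 0 of 14 comparisons did every pair correlate over 0.1 (-0.1378 to 0.4631), which with 3 pairs each cannot exclude pairing. Between INSL3-KI and WT, P23 gubernaculum replicates 2 and 3 stood at 0.3439 and 0.4631, and replicate 1 at -0.1214. P8 testis replicates 1 and 3 stood at 0.2355 and 0.3318, and replicate 2 at -0.1378. With a replicate block the calls were 0 for P8 testis INSL3-KI, 2 for INSL3-KO, 0 between them, 0 for P23 testis INSL3-KI, 5 for P40 testis and 0 between WT gubernaculum ages. Among all genes the block left 6, 1875, 318, 1598, 7262 and 540 calls.

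Without single libraries the calls ran from 0 to 4 for P23 gubernaculum, 0 to 2 for the interaction, 0 to 2 for P8 testis INSL3-KI, 1 to 11 for INSL3-KO, 0 to 6 between them, 0 to 3 for P23 testis INSL3-KI, 12 to 16 for INSL3-KO, 2 to 10 between them, 5 to 12 for P40 testis, 5 to 19 between WT tissues, 0 to 2 between WT gubernaculum ages and 6 to 21 between WT testis ages. Over all genes, in that order, the first 6 ran from 19 to 638, 0 to 463, 0 to 931, 1623 to 2860, 296 to 749 and 372 to 4073. The other 6 ran from 10545 to 10786, 3658 to 8501, 5588 to 10034, 3424 to 4622, 289 to 1369 and 9473 to 10367. Directions reversed for Hoxd4 with overlapping entries added (0.86 in P8 gubernaculum INSL3-KI against INSL3-KO, -0.33 in P8 testis INSL3-KO) and with Sertoli scaling for Hoxb4 (-0.016), Hoxd9 (-0.015) and Hoxd10 (-0.31) in P23 INSL3-KO testis, Hoxc6 (0.029), Hoxc8 (0.22) and Hoxd10 (0.094) in P23 INSL3-KI against INSL3-KO, and Hoxc4 (-0.085) and Hoxd10 (-0.061) at P40. Of values of single genes 1858 kept direction and side of the threshold, 242 lost their call and 32 gained one. Low counts kept Hoxb1, Hoxb13, Hoxc12, Hoxc13 and Hoxd1 out of the tests in P8 gubernaculum, and depth limits what can be said of them.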
